A study of Mus musculus with 8 samples.

Results

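The genes described here are Xbp1 and 9 genes of protein folding in the endoplasmic reticulum (ER), namely Hspa5, Hsp90b1, Calr, Canx, Pdia4, Pdia6, Dnajb9, Sdf2l1 and Hyou1. They were taken by symbol, through the Ensembl identifiers of the deposited files, and are 10 of the 34745 genes listed. The libraries are bulk RNA-seq of tumours that formed after B16F10 cells, which are mouse melanoma cells of an established line, were injected under the skin of C57BL/6J mice. Tumours of mice on a high cholesterol diet (HCD, 4 libraries, HCD 1 to HCD 4) were set against tumours of mice on a normal diet (ND, 4 libraries, ND 1 to ND 4). Both groups share the cell line and the mouse strain, and a tumour holds host cells beside the injected melanoma cells. The labels do not give the age of the mice, the length of feeding or whether each tumour came from its own mouse, so the spread behind the p-values is that between libraries and may be technical. The question for these genes was whether they shared the lower level in HCD of Trib3 and Ddit3, which are induced through ATF4.

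The ER folds proteins bound for the cell surface, secretion and the lysosome, and in pigment cells also those bound for the melanosome. When unfolded protein builds up there, sensors in its membrane respond: IRE1 makes XBP1 mRNA code for an active transcription factor, ATF6 is cut to release one, and PERK slows translation and raises ATF4, which in turn induces Ddit3 (CHOP) and Trib3. XBP1 and ATF6 act mainly on chaperone, folding and degradation genes. ATF4 is also raised by kinases that sense amino acid shortage and other stresses, so the ATF4 genes can change apart from the chaperones.

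A DNA element through which ATF6 and XBP1 act, the ER stress response element (ERSE), was looked for in the 250 bases before the RefSeq start of each gene (GRCm38.p6). The letters searched were CCAAT, then any 9 bases, then CCACG, on both strands and with no mismatch. A promoter window was found for 9 of the 10 genes, all but Hyou1, and 5 of these 9 held the element, against 35 of 27025 genes, or 0.13%, in the whole promoter table. The 5 were Hspa5, Hsp90b1 with a pair of matches, Calr, Canx and Pdia6. The matches are shown because they are a sequence feature that 5 of the 9 windows share, and capitals mark the fixed bases of the element, the CCAAT box at the left and CCACG at the right. Each is written on the strand on which it reads CCAAT first, with 5 flanking bases on either side.
Hspa5: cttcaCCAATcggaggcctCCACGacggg
Hsp90b1, nearer match: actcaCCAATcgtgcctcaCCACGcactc
Hsp90b1, farther match: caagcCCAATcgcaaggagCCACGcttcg
Calr: atgggCCAATgagggtcgaCCACGcgttg
Canx: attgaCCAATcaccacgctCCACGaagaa
Pdia6: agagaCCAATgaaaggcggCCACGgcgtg

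The Hspa5 match lay 47 to 65 bases before the start (printed window chr2:34772020-34772048, plus strand). The Pdia6 match lay 80 to 98 bases before it (chr12:17266486-17266514, plus strand), and the Canx match 127 to 145 bases before it (chr11:50325795-50325823, minus strand). These 3 were on the strand of their gene. For Hspa5 the GENCODE model begins earlier than the RefSeq start, so its match, although before the RefSeq start, lies inside that model. The nearer Hsp90b1 match, at 89 to 107 bases (chr10:86705528-86705556, plus strand), and the Calr match, at 144 to 162 bases (chr8:84847070-84847098, plus strand), were on the opposite strand. The farther Hsp90b1 match was on the strand of its gene at 194 to 212 bases (chr10:86705633-86705661, minus strand). With up to 1 mismatch allowed in CCACG, Pdia4 was added, giving 6 of 9 windows against 1.03% of all genes. Xbp1, Dnajb9 and Sdf2l1 had no such match. The CCAAT box alone, which is part of the element, was in 8 of the 9 windows and in 37.5% of all genes. The UPRE letters TGACGTGG and the ERSE-II letters, ATTGG, any 1 base and CCACG, were in 0 of the 9 windows, and in 0.603% and 0.037% of all genes. A match describes the letters of the window and does not show binding. The genes were picked as chaperones of the XBP1 and ATF6 arms. Their share of matches beside that of all genes is therefore a description and no test.

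Total counts ran from 14599222 to 17722093 per library. Libraries ND 2, ND 3 and ND 4 had counts on 18088 to 18224 genes, against 16745 in ND 1 and 16285 to 16728 in the HCD libraries. Melanocyte markers such as Pmel, Tyr and Dct summed to 27592 to 31231 CPM (counts scaled to the library's total) in HCD and 28781 to 30154 CPM in ND, so the tumours carried the markers of their label. Plasma cells, which carry very high levels of ER chaperones, were nearly absent by their markers: the 10 plasma cell and B cell markers summed to 2.78 to 4.59 CPM in HCD and 0.532 to 3.57 CPM in ND, and Tnfrsf17 was at 0 in every library. The 10 macrophage markers summed to 502 to 650 CPM (HCD) and 315 to 538 CPM (ND), and all 10 had a fold change above 1. The 8 fibroblast markers summed to 74.1 to 292 CPM (HCD) and 55.8 to 269 CPM (ND), and the 8 skeletal muscle markers to 3.21 to 6.65 CPM (HCD) and 3.49 to 79.2 CPM (ND). All 6 tested fibroblast markers had more in HCD (median log2 fold change 0.68) and all 5 tested muscle markers less (median -2.50). Each muscle marker had an unadjusted p under 0.05 in edgeR, where 7.49% of all tested genes did so with less in HCD. Of either list, 0 were called in edgeR or limma-voom, which called 0.182% and 0.144% of all tested genes. The muscle sum was 47.5, 79.2 and 10.969 CPM in ND 1 to ND 3, while ND 4, at 3.49 CPM, lay inside the HCD range. The tested muscle markers were near the floor in HCD, with means of 0.188 (Myh4) to 2.16 CPM (Mylpf). Of the 8 melanocyte markers, Mitf alone was called, with more in HCD, in edgeR, DESeq2 and limma-voom. Its log2 fold change was 0.85 (edgeR adjusted p = 0.0459). DESeq2, which called 3.39% of all genes it tested, also called the muscle genes Acta1 and Tnnt3 and the macrophage gene Mrc1. The part of these host cells in the values below was not tested. In bulk RNA, fewer cells of a type and less RNA per cell cannot be told apart.

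None of the 10 genes passed the test of HCD against ND tumours in edgeR's quasi-likelihood fit, whose calls (Benjamini-Hochberg adjusted p under 0.05 over 13186 tested genes) took in 9 genes higher in HCD (0.0683%) and 15 lower (0.114%). All 10 were tested, with adjusted p from 0.335 to 0.964, and DESeq2 and limma-voom, which called 3.39% and 0.144% of all genes they tested, also called 0 of them. Values of single genes below are CPM with TMM factors. Log2 fold changes (HCD over ND) ran from -0.08 for Hspa5 to 0.22 for Dnajb9, with 7 above 0 and 3 below, where 51.1% of all tested genes were above 0, and a median of 0.09 beside 0.00494 over all tested genes. The 3 below 0, Hspa5, Xbp1 and Sdf2l1, changed sign when some single libraries were left out. An unadjusted p under 0.05 was reached by 2 of the 10, Dnajb9 and Hyou1, both with more in HCD, where 7.21% of all tested genes did so in that direction. The HCD and ND values overlapped for each of the 10, while they did not overlap for 9.67% of all tested genes (4.94% higher and 4.73% lower in HCD).

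**Figure D1:**
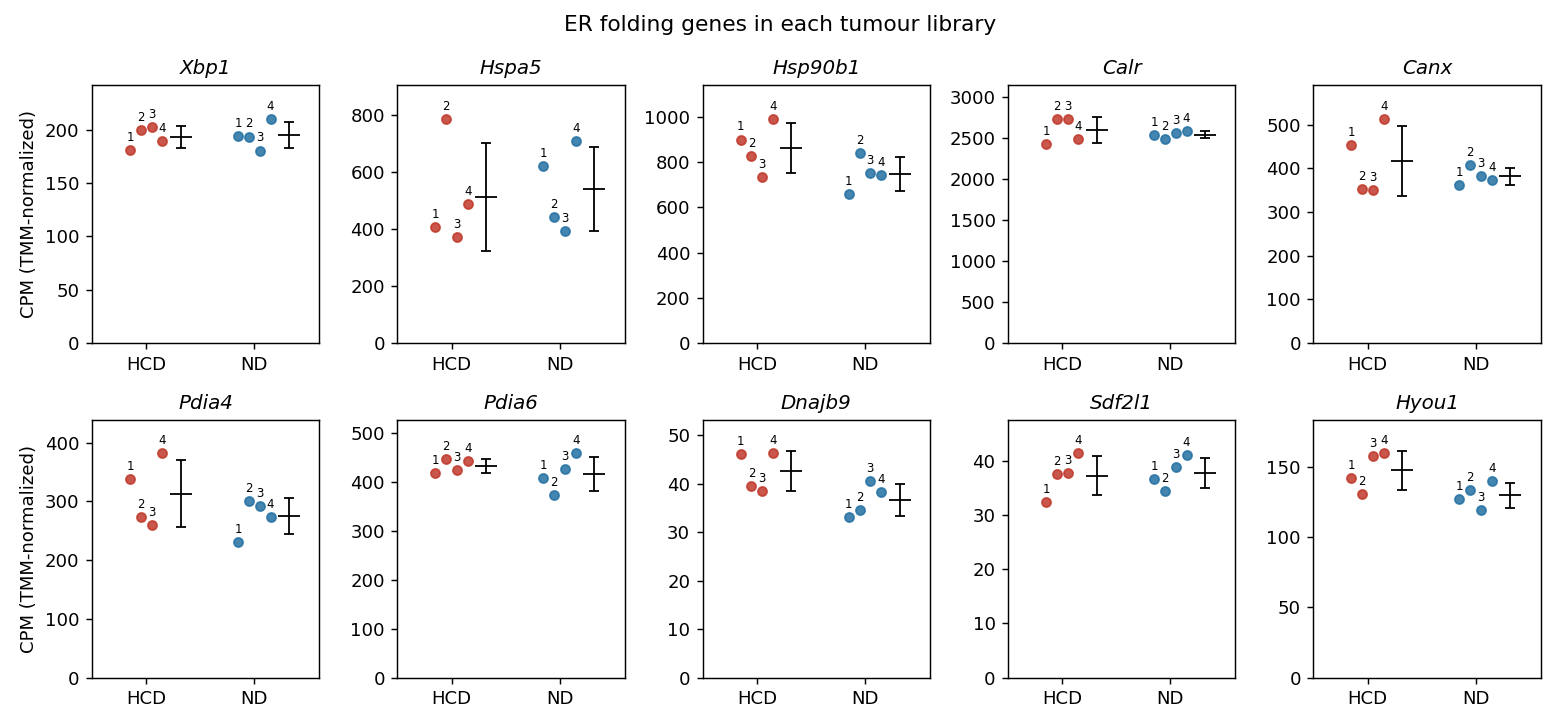
TMM-normalized CPM of each of the 10 genes (vertical axes, from 0) in the 4 HCD libraries (red) and the 4 ND libraries (blue), with replicate numbers beside the points and the mean ± SD of each group in black. The groups overlap in every panel, and Hspa5 has the widest spread, from 371 CPM in HCD 3 to 786 CPM in HCD 2.

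Per length, Calr was the most abundant of the 10, and Dnajb9 had the lowest mean on the scale used here, 57.3 times apart over all libraries. Levels were set between genes as CPM per kilobase of merged exons (GENCODE M21), a scale on which Calr was at 901 ± 56.2 in HCD and 882 ± 15.8 in ND (SD, n = 4 each here and throughout). Hsp90b1 followed at 214 ± 27.2 (HCD) and 186 ± 18.4 (ND). Then came, with Hspa5 reaching into the range of Hsp90b1 (163 to 246), Hspa5, Pdia4, Pdia6 and Canx, whose ranges over the 8 libraries, 87.7 to 186, 96.5 to 159, 100.1 to 123 and 74.8 to 109.6 CPM per kilobase, overlapped with one another. Their order among themselves is therefore not fixed by these data. Xbp1, at 55.6 to 64.9 CPM per kilobase, lay below all of these, and Sdf2l1, at 29.3 to 37.3, below Xbp1. Hyou1 (16.5 to 22.1) and Dnajb9 (13.0 to 18.2) were lowest and overlapped. On the same scale Trib3 was at 37.2 ± 1.3 in HCD and 72.5 ± 11.3 in ND, and Ddit3 at 30.6 ± 0.886 and 49.2 ± 7.3, so both stood among the less abundant of the 10 genes. The length used for Dnajb9 exceeds the one behind its deposited value (2549 against 1865 bases), which lowers its place. Whether Dnajb9 or Hyou1 came lowest therefore depends on the length used.

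Xbp1 (chromosome 11, 5520659 to 5525893, mm10), the transcription factor gene of the IRE1 arm, was at 181, 200.04, 203 and 189.7 CPM in HCD 1 to HCD 4, against 195, 194, 181 and 211 CPM in ND 1 to ND 4. The groups covered nearly the same range, and the highest value was that of ND 4. Its log2 fold change was -0.01 (SE 0.0679, edgeR adjusted p = 0.964), with a 95% interval of -0.16 to 0.14, or 0.894-fold to 1.1-fold. A gene count does not tell the form of Xbp1 mRNA cut by IRE1 from the uncut one, so the activity of that arm was not measured here.

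Hspa5 (chromosome 2, 34771970 to 34777547) encodes BiP, the HSP70 chaperone of the ER, which also holds the stress sensors inactive. Its CPM were 406, 786, 371 and 485 in HCD 1 to HCD 4, against 618, 442, 392.04 and 707 in ND 1 to ND 4. HCD 2, ND 4 and ND 1 were high and HCD 3 and ND 3 low, so that the extremes fell inside both groups. The log2 fold change was -0.08 (SE 0.25, edgeR adjusted p = 0.926), and its 95% interval of -0.63 to 0.48 was the widest of the 10. The standard deviation within groups was 0.443 on the log2 scale, against a median of 0.11 over the 1977 genes that averaged 100 CPM or more, of which 42 had a larger one.

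Hyou1 (chromosome 9, 44379490 to 44392369) encodes a large HSP70 relative that exchanges the nucleotide of BiP. It was at 142, 131, 158 and 159.6 CPM in HCD 1 to HCD 4, against 127, 133, 119 and 139.6 CPM in ND 1 to ND 4. Of the HCD libraries, 3 lay above every ND library, and HCD 2 lay within the ND range. The log2 fold change was 0.19 (SE 0.0825, unadjusted p = 0.0482 in edgeR across all genes, adjusted p = 0.337).

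Dnajb9 (chromosome 12, 44205559 to 44210326), a J-domain partner of BiP that is a known target of XBP1, was at 46.2, 39.6, 38.6 and 46.3 CPM in HCD 1 to HCD 4. In ND 1 to ND 4 it was at 33.2, 34.5, 40.5 and 38.2 CPM. HCD 1 and HCD 4 were above all ND libraries, and HCD 2 and HCD 3 were within their range. Its log2 fold change of 0.22 was the highest of the 10 (SE 0.0979, unadjusted p = 0.047 in edgeR across all genes, adjusted p = 0.335). A gene model outside the files, Gm6568, is 93.3% identical to Dnajb9 over 697 bases, so some of its reads may be shared.

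Sdf2l1 (chromosome 16, 17130138 to 17132383), which works with J-domain partners of BiP, was at 32.4, 37.6, 37.7 and 41.4 CPM in HCD 1 to HCD 4 and at 36.7, 34.4, 38.8 and 41.01 CPM in ND 1 to ND 4. The groups overlapped almost fully (log2 fold change -0.02, 95% interval -0.23 to 0.19, edgeR adjusted p = 0.96).

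Hsp90b1 (chromosome 10, 86690209 to 86705509) encodes GRP94, the HSP90 of the ER, whose clients include integrins and Toll-like receptors. It was at 901, 827, 735 and 994 CPM in HCD 1 to HCD 4, against 659, 840.2, 751 and 745 CPM in ND 1 to ND 4. HCD 4 and HCD 1 were the highest libraries and ND 1 the lowest, with HCD 3 below ND 2 to ND 4. The log2 fold change was 0.21 (SE 0.102, edgeR adjusted p = 0.386). On the opposite strand 1810014B01Rik covers 10.3% of its exon bases, with a mean of 26.1 counts per library, and whether the counting used strand is not stated.

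Calr (chromosome 8, 84841850 to 84846934) and Canx (chromosome 11, 50293961 to 50325673) encode calreticulin and calnexin, the chaperones that bind the sugar chains of new glycoproteins, calnexin from the membrane. Calr was at 2421, 2736, 2728 and 2492 CPM in HCD 1 to HCD 4, against 2532, 2481, 2557 and 2589 CPM in ND 1 to ND 4. HCD 2 and HCD 3 lay above the ND libraries and HCD 1 below them, with a log2 fold change of 0.03 (SE 0.0601, edgeR adjusted p = 0.863). Canx was at 454, 353, 351 and 514 CPM in HCD 1 to HCD 4, against 363, 408, 383 and 373 CPM in ND 1 to ND 4. Here HCD 1 and HCD 4 lay above the ND libraries and HCD 2 and HCD 3 below them, with a log2 fold change of 0.13 (SE 0.119, edgeR adjusted p = 0.676).

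Pdia4 (chromosome 6, 47796141 to 47813430) and Pdia6 (chromosome 12, 17266545 to 17284770) encode protein disulfide isomerases, and Pdia6 also dampens IRE1 signalling. Pdia4 was at 339, 273, 259.7 and 382 CPM in HCD 1 to HCD 4, against 231, 301, 293 and 274 CPM in ND 1 to ND 4. As for Canx, HCD 1 and HCD 4 were the highest libraries (log2 fold change 0.19, SE 0.129, edgeR adjusted p = 0.553). Pdia6 was at 419.7, 448, 424 and 443 CPM in HCD 1 to HCD 4, against 408, 375, 427 and 459 CPM in ND 1 to ND 4. The HCD libraries lay inside the ND range, with a log2 fold change of 0.06 (95% interval -0.10 to 0.21, edgeR adjusted p = 0.775).

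HCD 4 had the highest value for 6 of the 10 genes, namely Hsp90b1, Canx, Pdia4, Dnajb9, Sdf2l1 and Hyou1, while HCD 2 and ND 4 had it for 2 each. Over the 10 genes, the mean deviation from each gene's average (log2 CPM) was 0.01, 0.06, -0.06 and 0.16 in HCD 1 to HCD 4 and -0.09, -0.06, -0.07 and 0.06 in ND 1 to ND 4. Hspa5 carried much of this: over the other 9 genes the mean deviation was 0.05, -0.0067, -0.01 and 0.18 in HCD 1 to HCD 4 and -0.13, -0.05, -0.04 and 0.0082 in ND 1 to ND 4. HCD 4 remained the highest library, and ND 4 and HCD 2 came near 0. HCD 4 was also low in fibroblast markers, at 74.1 CPM against 263 to 292 CPM in the other HCD libraries. ND 3 and ND 4 were lower still in these markers, at 68.6 and 55.8 CPM. Their mean deviations over the 10 genes were -0.07 and 0.06. The part of fibroblasts in the values of HCD 4 was not tested. Without HCD 4 the median log2 fold change of the 10 was 0.05, with 0.02 for Canx, 0.08 for Pdia4 and 0.13 for Hsp90b1.

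**Figure D2:**
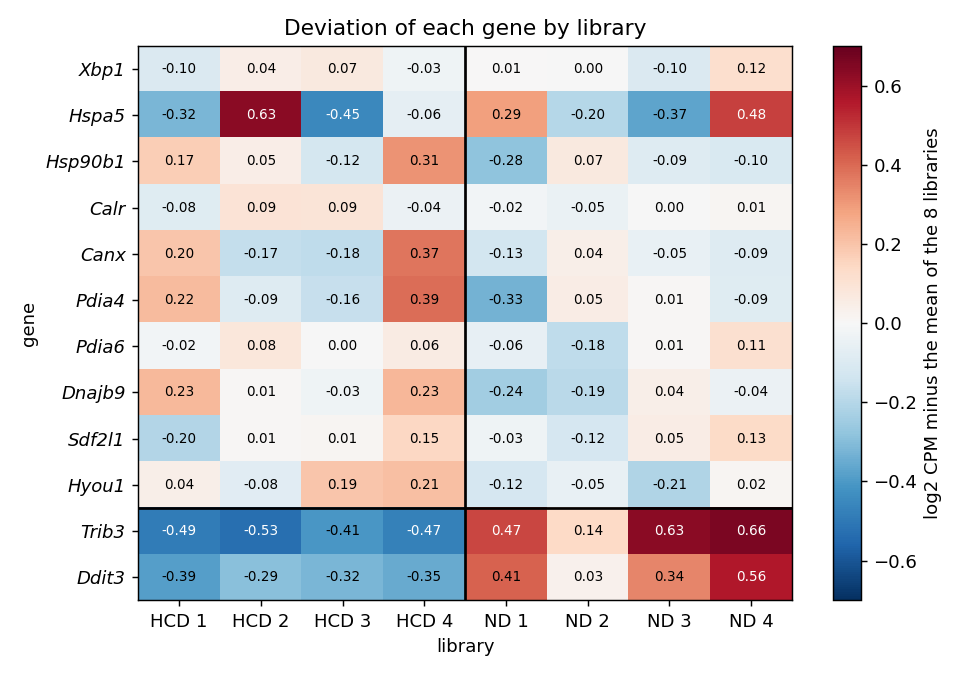
Deviation of each gene from its average over the 8 libraries (log2 CPM, colour and printed value) for the 10 genes and, below the line, Trib3 and Ddit3; HCD libraries are left of the vertical line and ND libraries right of it. Trib3 and Ddit3 are below 0 in all 4 HCD libraries and above 0 in all 4 ND libraries, while each of the 10 genes has both signs within HCD.

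The 5 genes whose library pattern was most like the mean of the 10, by Pearson's r over the 8 libraries, were Rars (0.97), an arginine tRNA ligase gene, Gsr (0.96), glutathione reductase, Slbp (0.96), which binds histone mRNA, Gm6685 (0.95) and Thnsl1 (0.94). Against the mean of the 9 genes other than Hspa5, their r was 0.77 (Rars), 0.88 (Gsr), 0.89 (Slbp), 0.89 (Gm6685) and 0.72 (Thnsl1). The mean also joins genes that ran opposite ways over the 8 libraries, such as Calr with Canx (r = -0.737) and Xbp1 with Canx (r = -0.538), while Hsp90b1, Canx and Pdia4 ran together (r from 0.845 to 0.944). The 5 genes were ranked out of all tested genes on 8 points that share the libraries' depth and scaling, and these values are a description. None of the 5 was called between the diets (edgeR adjusted p from 0.299 to 0.809), and Slbp had an unadjusted p under 0.05.

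Trib3, a pseudokinase gene induced through ATF4 and CHOP, was at 78.1, 76.1, 82.7 and 79.1 CPM in HCD 1 to HCD 4, against 152, 121, 169.9 and 173 CPM in ND 1 to ND 4. Ddit3, the CHOP gene, was at 50.6, 54.1, 53.0 and 51.7 CPM in HCD 1 to HCD 4, against 88.2, 67.6, 84.0 and 97.6 CPM in ND 1 to ND 4. Mars, on the opposite strand, shares 3.97% of the exon bases of Ddit3 and has a mean of 1484 counts per library. Neither gene overlapped between the diets, and both passed the test (log2 fold change -0.96 and -0.69, edgeR adjusted p = 0.0225 and 0.0459). Both were chosen because they were known to be lower in HCD, so these outcomes are a description. Of all tested genes, 4.73% were lower in HCD without overlap and 0.114% were called lower. Each of the 10 ER folding genes had a 95% interval that stayed above -0.69, the point estimate for Ddit3. For 9 of them the lower bound was -0.23 or higher, or at least 0.854-fold, and for Hspa5 it was -0.63, or 0.646-fold. The 95% interval was -1.20 to -0.72 for Trib3 and -0.92 to -0.46 for Ddit3, and the Hspa5 interval overlapped with that of Ddit3.

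**Figure D3:**
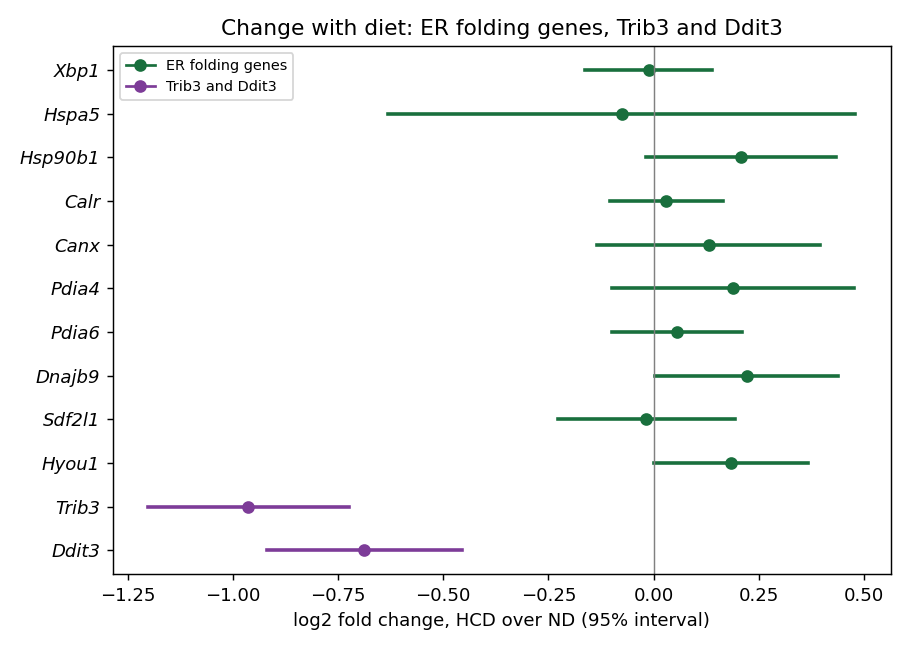
Log2 fold change of HCD over ND with its 95% interval (horizontal axis) for the 10 ER folding genes (green) and for Trib3 and Ddit3 (purple). The green intervals reach no lower than -0.63 (Hspa5), and the points for Trib3 and Ddit3 lie at -0.96 and -0.69.

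The difference itself was tested on the ratio of each gene to Trib3 in the same library (limma on log2 ratios, adjusted over 13185 genes). All 10 ratios were higher in HCD, by 0.85 (Hspa5, 95% interval 0.37 to 1.32) to 1.17 (Dnajb9, 0.84 to 1.497) on the log2 scale, with limma adjusted p of at most 0.00192. Against Ddit3 all 10 ratios were also higher, by 0.57 (Hspa5, 0.14 to 1.0075) to 0.89 (Dnajb9, 0.57 to 1.22), with limma adjusted p of at most 0.0178. Of these ratios to Trib3 and Ddit3, that of Hspa5 to Ddit3 alone overlapped between the diets. The ratio of 91.4% of all tested genes to Trib3, and of 80.3% to Ddit3, was likewise higher in HCD, since a ratio carries the fall of its lower part. The ER folding genes thus differed from Trib3 and Ddit3 as most tested genes did. Trib3 and Ddit3 were chosen because they were known to be lower in HCD, and their calls in edgeR were lost in part when a library was left out. For Trib3, adjusted p was 0.0505 without ND 3, 0.0631 without ND 4 and 0.0594, 0.0712, 0.0777 and 0.0891 without HCD 1 to HCD 4. For Ddit3, it was 0.084, 0.0977 and 0.118 without ND 1, ND 3 and ND 4 and 0.105, 0.114, 0.114 and 0.138 without HCD 1 to HCD 4. As single libraries were left out, the log2 fold change ran from -1.06 to -0.90 for Trib3 and from -0.78 to -0.61 for Ddit3. Ratios to Ddit3 were called for 9 of the 10 genes without ND 3 or HCD 2.

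Other genes of the pathway were counted in lists of known function. Of 20 genes of the ATF4 and CHOP program, all 20 had less in HCD, with a median log2 fold change of -0.32, beside 0.09 for the 10 ER folding genes. Trib3 and Ddit3 were the 2 that passed the test in edgeR, where DESeq2 called 7 (against 3.39% of all genes) and limma-voom 1 (against 0.144%), 14 had an unadjusted p under 0.05 (edgeR; 7.49% of all genes did so with less in HCD), and the list was drawn up with earlier results of these data known. Chac1, a glutathione-degrading enzyme gene, was the next by p, at 18.8 ± 2.09 CPM in HCD and 28.5 ± 5.04 CPM in ND (log2 fold change -0.60, edgeR adjusted p = 0.11, and called by DESeq2).

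**Figure D4:**
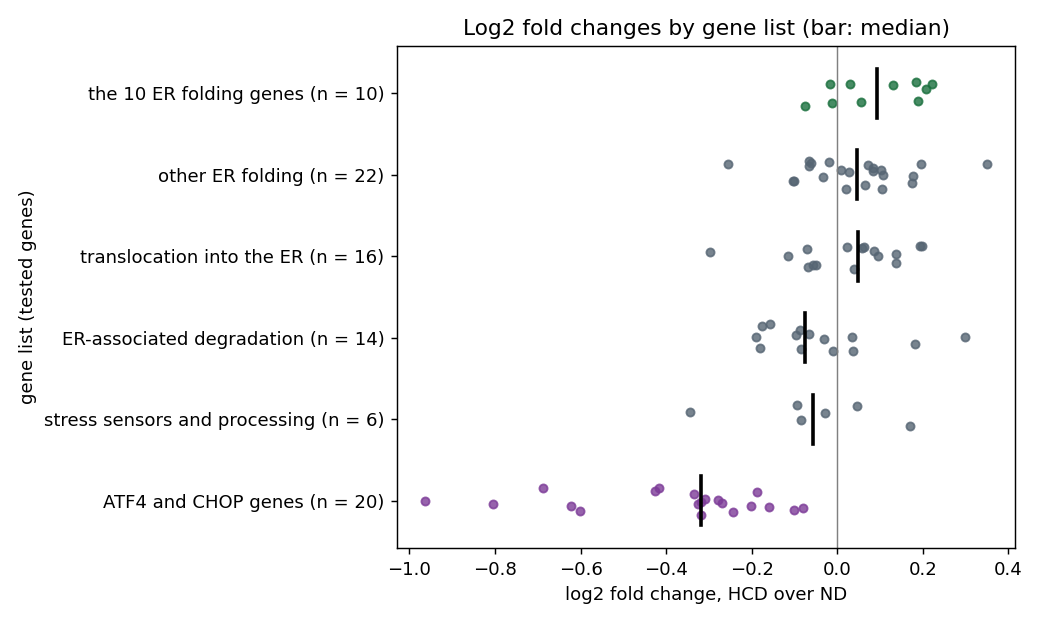
Log2 fold change of HCD over ND (horizontal axis) of every tested gene in the 10 ER folding genes and in 5 lists of the same pathways (rows), with a bar at each median. All 20 ATF4 and CHOP genes lie below 0 with a median of -0.32, while the medians of the other rows lie between -0.08 and 0.09.

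The sensors and their processing enzymes were counted in 6 genes, of which 0 were called in edgeR, DESeq2 or limma-voom. In edgeR 2 had an unadjusted p under 0.05, Atf6 with less and Atf6b with more in HCD, beside 14.7% of all tested genes. Atf6, the sensor that is cut to give the ATF6 factor, was at 64.04, 53.9, 62.1 and 63.0 CPM in HCD 1 to HCD 4, against 78.4, 71.1, 66.7 and 92.5 CPM in ND 1 to ND 4. Of the 6, Atf6 alone was without overlap between the diets (log2 fold change -0.34, SE 0.107, edgeR adjusted p = 0.185), beside 9.67% of all tested genes. Its relative Atf6b was at 78.5 to 81.1 CPM in HCD and 66.0 to 78.7 CPM in ND (log2 fold change 0.17, edgeR adjusted p = 0.308). Mbtps1, the protease that makes the first cut in ATF6, had a log2 fold change of -0.09 (edgeR adjusted p = 0.58).

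Of 22 other ER folding genes, 14 had a log2 fold change above 0 and 8 below, with a median of 0.05, and 0 were called in edgeR, where 3 had an unadjusted p under 0.05, beside 14.7% of all tested genes. Hspa13, an HSP70 of the ER membrane, was at 78.7, 77.3, 73.0 and 87.5 CPM in HCD 1 to HCD 4, against 57.7, 63.8, 62.0 and 64.9 CPM in ND 1 to ND 4. Its groups did not overlap (log2 fold change 0.35, SE 0.0769, edgeR adjusted p = 0.097), and DESeq2 called it (adjusted p = 0.00824). Ero1l, the oxidase that recharges disulfide isomerases and is also induced by low oxygen, was at 1098.5 ± 70.5 CPM in HCD and 1312 ± 84.8 CPM in ND (log2 fold change -0.26, edgeR adjusted p = 0.14, DESeq2 adjusted p = 0.0441). Tmx1, a membrane-bound thioredoxin, was at 155 ± 4.19 CPM in HCD and 135 ± 12.4 CPM in ND (log2 fold change 0.20, edgeR adjusted p = 0.263). These 3 of the 22 genes were without overlap between the diets, beside 9.67% of all tested genes, and limma-voom called 0 of the 22.

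Genes of ER-associated degradation, which returns misfolded protein to the cytosol, had 4 of 14 tested members above 0 and 10 below, with a median of -0.08. In edgeR, DESeq2 and limma-voom 0 were called. In edgeR 2 had an unadjusted p under 0.05, both with more in HCD, beside 14.7% of all tested genes in either direction (7.21% with more in HCD). Edem3, which trims sugar chains of misfolded glycoproteins, was at 86.3, 81.8, 67.8 and 81.2 CPM in HCD 1 to HCD 4, against 59.7, 66.7, 64.2 and 67.1 CPM in ND 1 to ND 4 (log2 fold change 0.30, edgeR adjusted p = 0.158), without overlap. Derl2, part of the exit channel, was at 58.4 ± 2.43 CPM in HCD and 51.4 ± 3.29 CPM in ND, also without overlap (log2 fold change 0.18, edgeR adjusted p = 0.29). Edem3 and Derl2 were the 2 of the 14 genes without overlap, beside 9.67% of all tested genes. Selenos was at 51.9 ± 6.21 CPM in HCD and 58.9 ± 2.32 CPM in ND (log2 fold change -0.18, edgeR adjusted p = 0.395). Of 16 genes of translocation into the ER, 10 were above 0 and 6 below, with a median of 0.05. In edgeR, DESeq2 or limma-voom 0 were called, and 1 had an unadjusted p under 0.05 in edgeR, beside 14.7% of all tested genes. That gene was Sec61g, a subunit of the translocation channel, at 13.0 ± 1.26 CPM in HCD and 16.0 ± 1.63 CPM in ND (log2 fold change -0.30, edgeR adjusted p = 0.285). Of the 16, Sec61g alone was without overlap between the diets, beside 9.67% of all tested genes. Spcs3, of the signal peptidase, and Ssr1, of the channel's partner complex, had log2 fold changes of 0.19 and 0.14 (edgeR adjusted p = 0.362 and 0.383).

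The changes of genes with and without the ERSE were set side by side. The 5 genes with the exact element had log2 fold changes of -0.08 (Hspa5), 0.21 (Hsp90b1), 0.03 (Calr), 0.13 (Canx) and 0.06 (Pdia6). The 4 with a window and no exact element had -0.01 (Xbp1), 0.19 (Pdia4), 0.22 (Dnajb9) and -0.02 (Sdf2l1), so the ranges of the 2 sets overlapped.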

How the data were processed

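Tumour RNA was extracted with an RNeasy kit and made into TruSeq RNA paired-end libraries, per the labels' protocols. The submitters' processing notes list mm10 as the build and, without their roles, HTSeq, edgeR, TopHat2 2.0.9 and CASAVA 1.8; no annotation release or strand setting is stated there. Each file holds whole-number counts per Ensembl gene, deposited without normalization, and FPKM, per the file headers. The deposited FPKM divide by a gene length that for 69.8% of 15120 genes (summed count at least 20) is the sum of all distinct exons of GENCODE M21, overlaps counted again (within 0.5%). They were therefore used only to recover lengths.

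Counts were tested with edgeR 4.0.16 (quasi-likelihood F-test, TMM factors, filter at a minimum count of 10, R 4.3.3) over 13186 genes. The model held diet alone, the threshold was a Benjamini-Hochberg adjusted p under 0.05, and SE was the log2 fold change divided by the root of F. Ratios to Trib3 and Ddit3 used limma 3.58.1 with trend on log2 CPM (prior count 2). Of the 34745 genes, 478 matched no symbol; of 133 list symbols, 2 were matched through a synonym. Named are the 10 genes, Trib3, Ddit3, the 3 genes of smallest p per pathway list and the 5 most alike in pattern. The members and lists were chosen with earlier results of these data known. Pairs of libraries within a group had a chi-square of 14.5 to 37.6 per degree of freedom, so none was a repeat sequencing of another library. Separate preparations from the same tumour or mouse would not show in these values. The fits were tried on simulated counts that gave every gene the same biological spread. The genes here differ in spread, so that trial does not show how the fits perform on these data. Alternatives were other scalings, no filter, DESeq2 1.42.0, limma-voom, a replicate block, a term for ND 2 to ND 4, and leaving out each library.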

Additional observations from a re-analysis of the deposited data

Results flagged for a closer look

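Libraries that stood far from the other 3 of their group were looked for in 30 named genes and both groups, or 60 groups, of which chance alone would single out about 1 in 20. None of the 10 ER folding genes had such a library. Spcs3 stood out in HCD 4, at 131 CPM, where the next library was at 115.6 CPM. In ND 4, Rars stood out at 102.4 CPM (next 96.1 CPM), Gsr at 35.3 CPM (next 29.9 CPM), Slbp at 21.9 CPM (next 17.96 CPM) and Thnsl1 at 5.69 CPM (next 3.7 CPM). These 4 were selected for a pattern like the mean of the ER folding genes, which in ND was highest in ND 4.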

How the results depend on the processing

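None of the 10 genes was called in any of the 15 alternatives, and their median log2 fold change stayed between 0.05 and 0.15. Xbp1, Hspa5 and Sdf2l1, all near 0, changed sign 8 times, counted once per gene and fit. This occurred without ND 4, HCD 1 or HCD 3, or with the term for ND 2, ND 3 and ND 4. Xbp1 ran from -0.0458 to 0.0277, Hspa5 from -0.359 to 0.0809 and Sdf2l1 from -0.0711 to 0.0412 as single libraries were left out. Sdf2l1 was 0.023 with the term for ND 2, ND 3 and ND 4. That term moved Pdia4 to 0.44, Hsp90b1 to 0.39, Dnajb9 to 0.36, Canx to 0.20 and Pdia6 to 0.09. Leaving out single libraries took Canx from 0.02 (without HCD 4) to 0.20 (without HCD 2 or HCD 3), Pdia4 as low as 0.08 (without HCD 4) and 0.11 (without ND 1), Pdia6 from 0.0082 (without ND 2) to 0.10 (without ND 4) and Calr from 0.003 (without HCD 3) to 0.06 (without HCD 1). The cause was not tested. Called genes (higher and lower in HCD) numbered 38 and 55 with no filter, 191 and 238 in DESeq2, 4 and 1 with that term, where ND 1 alone stands for ND and is assumed to vary like the others, and 0 to 6 in each direction as single libraries were left out. With the replicate block they numbered 0 and 0 (1634 genes at an unadjusted p under 0.05), Trib3 at an adjusted p = 0.119 and Ddit3 at 0.202. Deviations of same-numbered libraries correlated at -0.068 to 0.107 over all tested genes, so no general pairing was seen. A pairing that touches few genes would not show in these values, and Mesd, described below, split by library number in both groups. With the term, adjusted p was 0.245 for Trib3 and 0.339 for Ddit3, and in limma-voom 0.0521 for Ddit3. Ratios to Trib3 were called for 10 genes in each of 12 alternatives, and to Ddit3 for 9 or 10. At 4 libraries a group, the intervals of the 10 genes leave room for changes between 0.646-fold and 1.39-fold, both bounds being those of Hspa5.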

Other observations

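The exact ERSE was found in the promoter windows of 30 genes beside the ER folding genes described above, and 13 of them were tested. This set was drawn up after the values were seen. Of the 13, 5 had a log2 fold change above 0 and 8 below, with a median of -0.07, and 0 were called in edgeR. In edgeR 1 of the 13, Calr4, had an unadjusted p under 0.05, beside 14.7% of all tested genes. Calr4 was near the floor, at a mean of 0.646 CPM in HCD and 1.38 CPM in ND (log2 fold change -1.09, SE 0.439, edgeR adjusted p = 0.293). The set holds known ER stress genes: Creld2, a folding factor, at a log2 fold change of 0.18, Dnajc3, a BiP partner, at 0.10, Syvn1, a ubiquitin ligase of ER-associated degradation, at 0.03, and Alg12, a mannosyltransferase, at 0.14. These were picked out after the values were seen. None of them had an unadjusted p under 0.05 in edgeR (0.0579 for Creld2 to 0.671 for Syvn1). They are among the 5 genes above 0, and Calr4 is among the 8 below 0.

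Mesd, a chaperone of the ER for lipoprotein receptors, was at 24.9, 56.0, 28.3 and 67.1 CPM in HCD 1 to HCD 4 and at 26.4, 59.3, 29.8 and 63.3 CPM in ND 1 to ND 4. Libraries 1 and 3 of both groups lay low and libraries 2 and 4 high, with no value between 29.8 and 56.0 CPM. It was singled out after its values were seen.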
